A study of Mus musculus with 4 samples.

Results

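The Fc gamma receptors are the cell-surface receptors for the constant part of IgG. Their 4 mouse genes (Fcgr1, Fcgr3, Fcgr4 and Fcgr2b), the shared signalling chain Fcer1g and the neonatal Fc receptor heavy chain Fcgrt are described here. They were taken by symbol from a gene expression table, and all 6 were found among its 24394 usable genes. The table comes from polyA RNA-seq of tissue labelled colon, cut near the anal end, from 4 C57BL/6 mice, aged 8 weeks, that drank 2.5% dextran sulfate sodium (DSS) for 5 days and then plain water for 2 days. DSS, given to induce colitis, injures the lining of the gut. The mice differed in genotype, with 2 of them Usp25+/+ (named WT-139 and WT-140) and 2 Usp25-/- (named KO-826 and KO-850). The design asks how transcripts differ between DSS-treated mice with and without Usp25, the gene of a deubiquitinating enzyme. There was no group without DSS, and how the Usp25 allele was made is not given in the sources used here.

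IgG bound to a target is read by these receptors on macrophages, neutrophils, monocytes and other leukocytes. Fcgr1, Fcgr3 and Fcgr4 are activating receptors, which signal through the gamma chain encoded by Fcer1g. That chain carries an ITAM, a paired tyrosine motif that recruits the kinase SYK once phosphorylated. Fcgr2b is the inhibitory receptor, which carries an ITIM in its own tail and recruits the phosphatase SHIP1. Fcgrt pairs with beta-2 microglobulin to form FcRn, which rescues IgG from breakdown inside cells. In the gut wall the Fc gamma receptors and Fcer1g are known mainly from resident and infiltrating myeloid cells.

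Usp25 followed the genotype labels, at 38.5 and 16.6 FPKM in the Usp25+/+ mice and at 2.65 and 1.71 FPKM in the Usp25-/- mice. FPKM divides a gene's fragments by its transcript length and by the mapped total, so levels can be compared between genes. The depth of the libraries is unknown. The labelled tissue, colon, was not borne out by most of its markers. Of 8 colon epithelium markers 6 stayed below 1 FPKM in all 4 mice, and Zg16 and Aqp8 were listed at 0 throughout. The exceptions were Krt20 and Vil1. Krt20 reached 52.4 FPKM in mouse KO-826 and 7.35 FPKM in mouse KO-850, against 4.31 FPKM in mouse WT-139 and 3.11 FPKM in mouse WT-140. Vil1 exceeded 1 FPKM only in mouse KO-826, with 1.46 FPKM. Lung epithelium markers (Sftpa1, Sftpb, Sftpc, Scgb1a1 and Nkx2-1) summed to between 2028 and 4967 FPKM. The libraries are called colon only by their label. Mouse WT-139 stood apart from the others, with 7 neutrophil markers summing to 40660 FPKM, versus 719 to 2011 FPKM. That mouse also had fewer genes listed at 0, with 3862, versus 7175 to 8813 in the others. The reason was not tested, and values listed at 0 may not be comparable between mice.

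The motifs that set the activating and inhibitory arms apart are short. The codons of the Fcer1g ITAM and of the Fcgr2b ITIM are given here, read 5′ to 3′ from the Gencode transcripts of the mm9 build, with the codons of the tyrosines and of the hydrophobic positions of each motif in capitals. The ITAM takes codons 65 to 79 of 86 in Fcer1g-001 and is split between exon 4 (chr1:173160198-173160203) and exon 5 (chr1:173160020-173160058) on the minus strand. The ITIM takes codons 317 to 322 of 340 in Fcgr2b-001, in exon 8 (chr1:172891202-172891219, minus strand).
Fcer1g ITAM: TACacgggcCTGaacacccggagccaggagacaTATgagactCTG
Fcgr2b ITIM: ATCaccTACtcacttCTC
A search of all 6 translated coding sequences for the ITAM, a pair of tyrosines each followed at the third place by leucine or isoleucine, found it once, in Fcer1g. The looser ITIM pattern, a tyrosine with a set residue type before it and a hydrophobic one after it, also matched 3 times in Fcgr1 and once each in Fcgr4, Fcer1g and Fcgrt, so a match alone marks no inhibitory motif.

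Fcgr2b and Fcgr3 are close copies outside their tails, which bears on how well their levels can be told apart. Their longest identical coding run is 129 bases. It covers bases 278 to 406 of the Fcgr2b coding sequence (chr1:172898111-172898212 and chr1:172896805-172896831 in mm9, exons 3 and 4) and bases 263 to 391 of that of Fcgr3 (chr1:172987822-172987923 and chr1:172984298-172984324, exons 3 and 4), all on the minus strand. It is printed in lower case because every base is shared.
Fcgr2b and Fcgr3, shared run: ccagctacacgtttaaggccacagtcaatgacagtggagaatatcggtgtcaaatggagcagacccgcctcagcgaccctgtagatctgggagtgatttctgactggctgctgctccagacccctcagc
Of all 50-base stretches of the Fcgr3 transcript, 12.8% also occur in Fcgr2b, and 10.7% of those of Fcgr2b occur in Fcgr3. At 75 bases the shares were 7.38% and 6.15%. Fcgr1, Fcgr4, Fcer1g and Fcgrt shared no 36-base stretch with the protein-coding transcripts of another gene. How the authors assigned reads from shared stretches is not given in the sources used here, so the levels of Fcgr3 and Fcgr2b carry that uncertainty.

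Among the activating receptors, Fcgr3 and Fcgr4 stood lower in both Usp25-/- mice, and Fcgr1 did not separate the genotypes. Fcgr3, the low-affinity activating receptor, stood at 593 and 539 FPKM in mice WT-139 and WT-140 and at 367 and 337.5 FPKM in mice KO-826 and KO-850. The group means were 566 ± 38.3 and 352 ± 21.1 FPKM (SD, n = 2), and the Usp25-/- mean was 62.2% of the other. The groups did not overlap, and the gap between them was wider than the distance between mice of either genotype. Fcgr4, a receptor for a subset of IgG subclasses, stood at 258 and 236.5 FPKM, versus 168 and 129.5 FPKM. Its means were 247 ± 15.1 and 149 ± 27.5 FPKM (SD, n = 2), again without overlap, and the Usp25-/- mean was 60.3% of the other. Fcgr1, the high-affinity receptor, was far less abundant, at 13.8 and 18.2 FPKM, versus 13.9 and 15.1 FPKM. Both Usp25-/- values of Fcgr1 lay inside the range of the Usp25+/+ mice.

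The inhibitory receptor and the signalling chain were also lower in both Usp25-/- mice. Fcgr2b stood at 345 and 263.5 FPKM in mice WT-139 and WT-140 and at 185 and 220.3 FPKM in mice KO-826 and KO-850. The groups did not overlap, but the distance between the Usp25+/+ mice was as large as that between mouse WT-140 and mouse KO-826. Fcer1g, the gamma chain, was the most abundant of the 6 genes in every mouse, at 1177 and 739.6 FPKM, versus 654 and 659 FPKM. Mouse WT-139 set most of this difference, since mouse WT-140 stood close to the Usp25-/- mice. Relative to mouse WT-140, Fcer1g was at 1.59 in mouse WT-139 and at 0.884 and 0.891 in mice KO-826 and KO-850.

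Fcgrt, unlike Fcgr3, Fcgr4 and Fcgr2b, overlapped between the genotypes, as Fcgr1 did. Mouse WT-139 had 26.6 FPKM of it and mouse WT-140 had 89.1 FPKM, with 79.9 and 73.1 FPKM in mice KO-826 and KO-850. The Usp25-/- values lay between those of the Usp25+/+ mice, and mouse WT-139 was the low one. B2m, the light chain of FcRn and of MHC class I molecules, stood at 2448 and 2851 FPKM, versus 1741 and 2431 FPKM. The Fcgrt level was 1.09% of that of B2m in mouse WT-139 and 3.01% to 4.59% in the other mice.

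**Figure D1:**
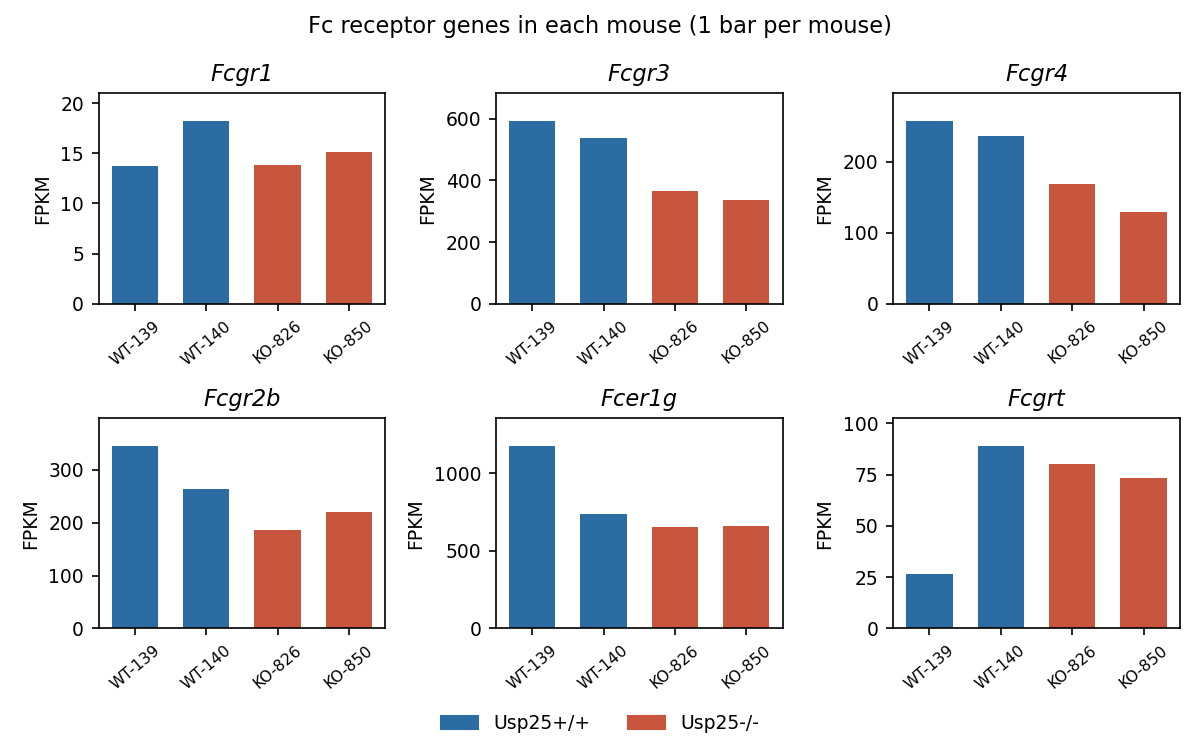
FPKM of each Fc receptor gene on the vertical axis, from 0, with 1 bar for each of the 4 mice (blue, Usp25+/+; red, Usp25-/-) and 1 panel for each gene. Fcgr3, Fcgr4, Fcgr2b and Fcer1g have both red bars below both blue bars, Fcgr1 ranges from 13.8 to 18.2 FPKM, and Fcgrt is low at 26.6 FPKM in mouse WT-139.

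The order of the levels was the same in all 4 mice, from Fcer1g through Fcgr3, Fcgr2b, Fcgr4 and Fcgrt to Fcgr1. Fcer1g ranked between 44 and 130 of the 24394 genes, within the top 0.533% in each mouse. Fcgr3 ranked between 111 and 222, and Fcgr1 between 3389 and 4163. The range of Fcer1g over the mice did not overlap that of Fcgr3. The ranges of Fcgr3 and Fcgr2b, and of Fcgr2b and Fcgr4, overlapped across mice, although within each mouse the order held. The ranges of Fcgr4 and Fcgrt, and of Fcgrt and Fcgr1, did not overlap.

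None of the 6 genes passed the test between the genotypes. Limma's moderated test on log2(FPKM + 1), two-sided and adjusted by Benjamini-Hochberg over 12103 genes, called 0 members, and it called 0 genes in all (0%). At an unadjusted p under 0.05 it gave 0 members and 400 genes (3.3%). Fcgr4 had the lowest value, a log2 difference (Usp25-/- minus Usp25+/+) of -0.74 ± 0.33 (SE) and an adjusted p of 0.968 by limma. The differences of Fcgr3, Fcgr2b and Fcer1g were -0.68 ± 0.34, -0.58 ± 0.35 and -0.51 ± 0.42. Fcgr1 had -0.12 ± 0.30 and Fcgrt 0.64 ± 0.60. Limma's adjusted p was 0.968 for each of these except Fcgr1, with 0.979.

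Counted by overlap, 4 of the 6 members were lower in both Usp25-/- mice than in either Usp25+/+ mouse, and 0 were higher in both. Of all genes tested, 14.7% were lower in this way and 19% were higher. The median log2 difference was -0.54 over the members and 0.03 over all genes tested, whose quartiles were -0.25 and 0.30. Of the members 5 had a negative difference, as had 46.4% of all genes tested. The members were read in the same 4 libraries, so they are not independent observations of the genotype. Whether fewer cells of a type or less RNA per cell gives a lower value cannot be told apart in bulk tissue.

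**Figure D2:**
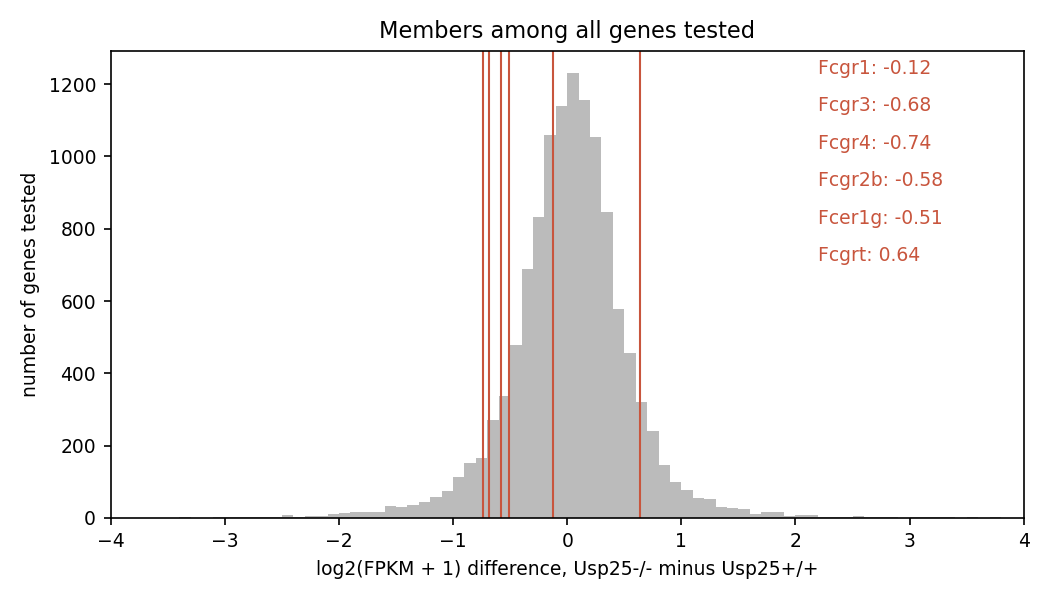
Number of tested genes (grey, vertical axis) by their log2(FPKM + 1) difference between Usp25-/- and Usp25+/+ mice (horizontal axis, drawn from -4 to 4), with a red line for each Fc receptor gene. Fcgr4 at -0.74, Fcgr3 at -0.68, Fcgr2b at -0.58 and Fcer1g at -0.51 lie left of the lower quartile of all genes, and Fcgrt at 0.64 lies right of the upper one.

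Fcgr3 and Fcgr4 kept their direction and stayed at -0.55 or below with any one mouse left out, while Fcer1g and Fcgrt depended on mouse WT-139. Without mouse WT-139 the log2 differences of Fcgr3 and Fcgr4 were -0.61 and -0.68, and those of Fcgr2b and Fcer1g were -0.38 and -0.17. Fcgrt turned from 0.64 to -0.22 in the same step, and Fcgr1 went to -0.31. All 6 members were then lower in both Usp25-/- mice than in mouse WT-140, as were 36.8% of all genes tested. Without mouse WT-140 the difference of Fcer1g was -0.84, that of Fcgr2b -0.77, that of Fcgrt 1.49 and that of Fcgr1 0.07. That run sets mouse WT-139 alone against the Usp25-/- mice, and limma called no member in it. Leaving out mouse KO-826 or mouse KO-850 kept Fcgr3 between -0.74 and -0.62 and Fcgr4 between -0.93 and -0.55.

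**Figure D3:**
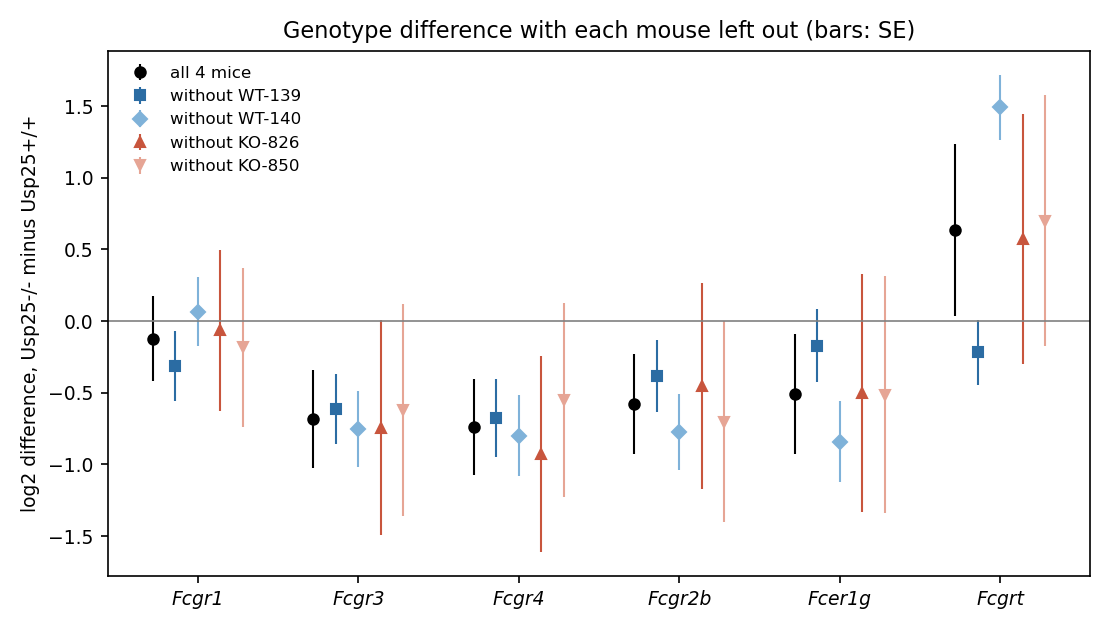
Log2 difference between Usp25-/- and Usp25+/+ mice on the vertical axis, with its SE from limma as bars, for each Fc receptor gene with all 4 mice (black) and with each mouse left out in turn (coloured symbols). The points of Fcgr3 and Fcgr4 stay below 0, whereas Fcgrt runs from -0.22 without mouse WT-139 to 1.49 without mouse WT-140.

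Fcgr3, Fcgr2b and Fcgr4 made up similar shares of the 4 IgG receptors in every mouse even though the summed level differed. Together the 4 receptors reached 1210 and 1057 FPKM in mice WT-139 and WT-140 and 735 and 702.5 FPKM in mice KO-826 and KO-850. Fcgr3 supplied 48% to 51% of this sum, Fcgr2b 24.9% to 31.4% and Fcgr4 18.4% to 22.9%, each with overlap between the genotypes. The small share of Fcgr1 was 1.14% and 1.72% in Usp25+/+ mice and 1.89% and 2.15% in Usp25-/- mice, without overlap. Fcgr1 itself overlapped, at 13.8 and 18.2 FPKM, versus 13.9 and 15.1 FPKM. The sum it is divided by was lower in both Usp25-/- mice, so the share is no separate result for Fcgr1. The 3 activating receptors summed to 2.5 and 3.01 times Fcgr2b in mice WT-139 and WT-140 and to 2.97 and 2.19 times in mice KO-826 and KO-850. The genotypes overlapped in this ratio.

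Ratios between members within a mouse do not depend on the scaling between libraries, and 6 of them were compared. The ratio of Fcgr3 to Fcgr2b was 1.72 and 2.05 in Usp25+/+ mice and 1.98 and 1.53 in Usp25-/- mice. The mean log2 ratio differed by -0.11, with an exact two-sided permutation p of 0.667 (adjusted p = 1 over the 6 ratios). The ratio of Fcgr4 to Fcgr2b was 0.746 and 0.897 against 0.909 and 0.588, a log2 difference of -0.16 (exact permutation p = 1). The ratio of Fcgr1 to Fcgr2b was 0.0399 in mouse WT-139 and 0.0686 to 0.0748 in the other mice. Against the gamma chain, Fcgr3 stood at 0.504 and 0.729 times Fcer1g in Usp25+/+ mice and at 0.562 and 0.512 times in Usp25-/- mice. Fcgr4 stood at 0.219 and 0.320 against 0.258 and 0.197, and the genotypes overlapped in both ratios. None of the 6 ratios passed the exact permutation test, and with 2 mice against 2 that test cannot go below p = 0.333.

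**Figure D4:**
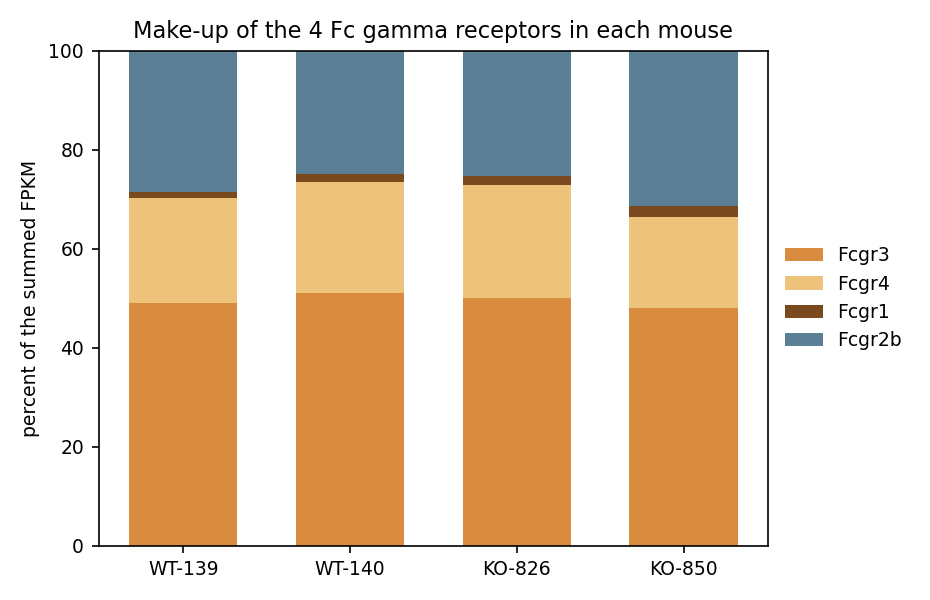
Share of each of the 4 Fc gamma receptors in their summed FPKM, in percent on the vertical axis, with 1 stacked bar for each mouse. Fcgr3 makes up 48% to 51% of the sum in every mouse and Fcgr2b between 24.9% and 31.4%.

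The 4 members whose genotype groups did not overlap lie together on chromosome 1. In mm9 they span chr1:172890689-173164496, a stretch of 274 kb with Fcgr2b (172890689 to 172906678, minus strand), Fcgr4 (172949051 to 172959892, plus), Fcgr3 (172981300 to 172995066, minus) and Fcer1g (173159703 to 173164496, minus). Fcgr1 lies on chromosome 3 (96086832 to 96098179, minus) and Fcgrt on chromosome 7 (52348363 to 52359192, minus). Gencode places 11 protein-coding genes in the chromosome 1 stretch. Besides the members, 3 of them were tested, a look taken after the members' values were known. Sdhc, a subunit of mitochondrial complex II, showed 73.4 and 133 FPKM in Usp25+/+ and 135 and 114 FPKM in Usp25-/- mice. Tomm40l, of the mitochondrial import channel family, stood at 4.46 and 7.19 FPKM, versus 7.15 and 8.67 FPKM. Pcp4l1 stood at 3.23 and 15.3 FPKM, versus 2.08 and 8.12 FPKM. The genotypes overlapped for all 3 genes, and limma called 0 of them.

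The bases before the start sites of the 4 receptor genes are shown because Fcgr3, Fcgr4 and Fcgr2b had lower values in Usp25-/- mice and Fcgr1 did not separate the genotypes. Each run holds the 250 bases upstream of a RefSeq start site (GRCm38.p6), 5′ to 3′ along the gene's strand, and 6 of the 6 members had an entry. For Fcgr3 the more downstream of its 2 listed start sites is used. Capitals mark 2 motifs searched on both strands: GAGGAA, a sequence bound by PU.1 and called the PU.1 core here, and GAAANNGAA, the core of the interferon-stimulated element. The motifs were chosen after the members' values were seen, and no match overlaps another.
Fcgr1, chr3:96293970-96294219, minus strand: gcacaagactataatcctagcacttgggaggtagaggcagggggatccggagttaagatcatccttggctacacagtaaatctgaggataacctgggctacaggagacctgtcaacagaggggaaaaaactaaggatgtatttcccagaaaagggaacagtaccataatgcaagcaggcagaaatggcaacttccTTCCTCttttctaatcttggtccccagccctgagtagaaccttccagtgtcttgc
Fcgr3, chr1:171059395-171059644, minus strand: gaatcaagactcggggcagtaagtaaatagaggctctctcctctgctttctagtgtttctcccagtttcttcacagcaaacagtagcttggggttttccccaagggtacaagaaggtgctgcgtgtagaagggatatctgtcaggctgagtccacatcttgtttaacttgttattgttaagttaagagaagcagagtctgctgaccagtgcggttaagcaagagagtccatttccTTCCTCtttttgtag
Fcgr4, chr1:171018676-171018925, plus strand: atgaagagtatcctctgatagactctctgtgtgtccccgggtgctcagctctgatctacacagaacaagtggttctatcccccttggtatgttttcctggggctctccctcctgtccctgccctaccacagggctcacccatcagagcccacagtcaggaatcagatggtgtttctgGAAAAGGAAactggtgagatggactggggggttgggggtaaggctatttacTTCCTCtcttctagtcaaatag
Fcgr2b, chr1:170976072-170976321, minus strand: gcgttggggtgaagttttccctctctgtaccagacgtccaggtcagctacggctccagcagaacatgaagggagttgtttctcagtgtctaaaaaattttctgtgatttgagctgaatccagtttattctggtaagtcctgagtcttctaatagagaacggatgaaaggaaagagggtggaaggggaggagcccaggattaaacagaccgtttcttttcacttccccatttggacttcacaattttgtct
Fcgr1 holds the PU.1 core on the other strand, at positions -55 to -50 from the start site. Fcgr3 holds the PU.1 core at -15 to -10 and Fcgr4 at -22 to -17, both on the other strand, and Fcgr4 also holds GAAAAGGAA at -73 to -65. The Fcgr2b window, like those of Fcer1g and Fcgrt, has no exact match to either motif. Other forms of the sites were not searched, so a site may be present without a match. Of 32536 distinct promoter windows of this length, 23.4% hold the PU.1 core and 7.15% the interferon core. Matches are descriptions of the sequence, and whether a factor binds there was not measured.

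The genes that carry the ITAM signal inward were mostly lower in Usp25-/- mice as well, though none was called by limma. In the list of ITAM signalling 17 of 19 members had a negative log2 difference, with a median of -0.72, and 13 of 19 were lower without overlap. Over all genes tested, 46.4% had a negative difference and 14.7% were lower without overlap. Syk, the kinase that docks on the gamma chain, showed 128 and 64.8 FPKM in Usp25+/+ and 41.4 and 51.4 FPKM in Usp25-/- mice. Fgr, a Src family kinase of phagocytes, stood at 102 and 74.4 FPKM, versus 39.7 and 53.4 FPKM, giving a log2 difference of -0.90 ± 0.34. Vav1, a guanine nucleotide exchange factor, stood at 66.1 and 33.6 FPKM, versus 21.2 and 26.2 FPKM. Lcp2, the adaptor SLP-76, stood at 98.9 and 39.9 FPKM, versus 26.1 and 30.3 FPKM. Pik3cd, a catalytic subunit of PI3 kinase, stood at 22.6 and 16.1 FPKM, versus 8.18 and 12.6 FPKM. Lyn, which phosphorylates both ITAM and ITIM, overlapped between the genotypes, at 151 and 75.01 FPKM, versus 73.4 and 77.1 FPKM. The median of this list was -0.35 with mouse WT-139 left out, and 14 of 19 members were lower in both Usp25-/- mice than in mouse WT-140, as were 36.8% of all genes tested.

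On the inhibitory side, 9 of 11 members had a negative difference, with a median of -0.34 and 0 called by limma. Of the 11, 3 were lower without overlap, beside 14.7% of all genes tested. Ptpn6, the phosphatase SHP-1, stood at 154 and 124 FPKM, versus 55.5 and 87.4 FPKM (log2 difference -0.98 ± 0.37, limma adjusted p = 0.968). Inpp5d, which encodes the SHIP1 phosphatase used by Fcgr2b, stood at 43.9 and 28.6 FPKM, versus 19.0 and 21.6 FPKM. The phosphatase gene Ptprc, known as CD45, stood at 123 and 46.4 FPKM, versus 51.0 and 43.3 FPKM and overlapped. Dok3, an adaptor, was lower without overlap, at 56.3 and 75.3 FPKM, versus 49.0 and 52.3 FPKM. The median of these inhibitory genes was -0.09 with mouse WT-139 left out and -0.61 with mouse WT-140 left out.

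Other adaptors and receptors that couple to an ITAM did not all stand on one side. Of 13 tested members 10 had a negative difference (median -0.40), and 0 were called by limma. Of the 13, 3 were lower without overlap, beside 14.7% of all genes tested. Tyrobp, the adaptor DAP12, was more abundant than Fcer1g in 3 of the 4 mice. It had 1032 and 1656 FPKM in Usp25+/+ mice, versus 1255 and 1038 FPKM in Usp25-/- mice. It overlapped between the genotypes, with mouse WT-140 high and mouse WT-139 the lowest. Pira1, which pairs with the gamma chain, reached 24.4 and 16.5 FPKM in the Usp25+/+ mice and was listed at 0 in the Usp25-/- mice (limma adjusted p = 0.346). It belongs to a family of close copies, between which reads can be split. Pira6 of the same family stood at 41.2 and 45.1 FPKM, versus 16.5 and 33.5 FPKM. Pirb, its inhibitory relative with ITIMs, stood at 161 and 138 FPKM, versus 72.3 and 98.1 FPKM. Clec4e, the gamma chain-coupled receptor Mincle, followed mouse WT-139 instead, at 1560 FPKM there and at 58.7 to 121 FPKM in the other mice.

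Other Fc receptor and Fc receptor-like genes were mostly scarce, with the highest value at 13.9 FPKM, that of Fcrlb in mouse WT-139. Of 13 genes 7 were tested, and 0 were called by limma. Pigr, which carries IgA across epithelia, reached 12.1 FPKM in mouse WT-139 alone and 1.47 to 2.14 FPKM elsewhere. Fcer1a, the IgE-binding chain that also uses the gamma chain, was listed at 0 in 3 mice and stood at 0.338 FPKM in mouse KO-850. Trim21, a cytosolic antibody receptor, stood at 7.16 and 2.55 FPKM, versus 2.36 and 2.43 FPKM. Fcrlb, an Fc receptor-like gene, stood at 13.9 and 4.13 FPKM, versus 6.15 and 3.29 FPKM, and Fcmr, the IgM receptor, at 0.594 and 1.59 FPKM, versus 1.45 and 2.998 FPKM. The IgG ligands were not analysed here, because 7 of the 11 entries of the ligand list, all immunoglobulin constant regions, had no matching symbol. Ptx3, a pentraxin, stood at 3.45 and 0.353 FPKM, versus 1.763 and 0.1996 FPKM. Jchain, which links IgA and IgM, stood at 11.8 and 60.9 FPKM, versus 15.9 and 24.95 FPKM.

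Among regulators of these genes, Spi1 and Irf8 were lower in both Usp25-/- mice and Cebpb was higher, none called by limma. Spi1, which encodes PU.1, showed 185.5 and 243 FPKM in Usp25+/+ and 109.5 and 148 FPKM in Usp25-/- mice. The level of Irf8, which directs myeloid development, was 28.7 and 22.3 FPKM, versus 9.39 and 16.2 FPKM. Ifng, the gene of interferon gamma, was at 8.36 and 0.456 FPKM in Usp25+/+ mice and listed at 0 in Usp25-/- mice, and it did not pass the filter on low values. C5ar1, the C5a receptor, was high in mouse WT-139 alone, at 132 FPKM, with 25.4 to 25.6 FPKM elsewhere. Cebpb stood at 127 and 200 FPKM, versus 246 and 208 FPKM. Of 8 tested regulators 6 had a negative difference (median -0.86, or -0.22 with mouse WT-139 left out), 4 were lower without overlap and 1 was higher. Over all genes tested these shares were 14.7% and 19%.

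Of 9 phagocytic receptors that work beside the Fc receptors, 8 had a negative difference (median -0.26), and 0 were called by limma. Of the 9, 3 were lower without overlap, beside 14.7% of all genes tested. Itgb2, the integrin beta chain of complement receptor 3, stood at 466 and 587 FPKM, versus 316.5 and 377 FPKM. Its partner Itgam reached 268 FPKM in mouse WT-139, with 14.2 to 17.3 FPKM elsewhere. Msr1, a scavenger receptor, stood at 55.4 and 57.3 FPKM, versus 38.2 and 44.9 FPKM, and Cd36, another scavenger receptor, at 223 and 184 FPKM, versus 136.5 and 169.6 FPKM. The median of the list was -0.46 with mouse WT-139 left out and 0.17 with mouse WT-140 left out.

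**Figure D5:**
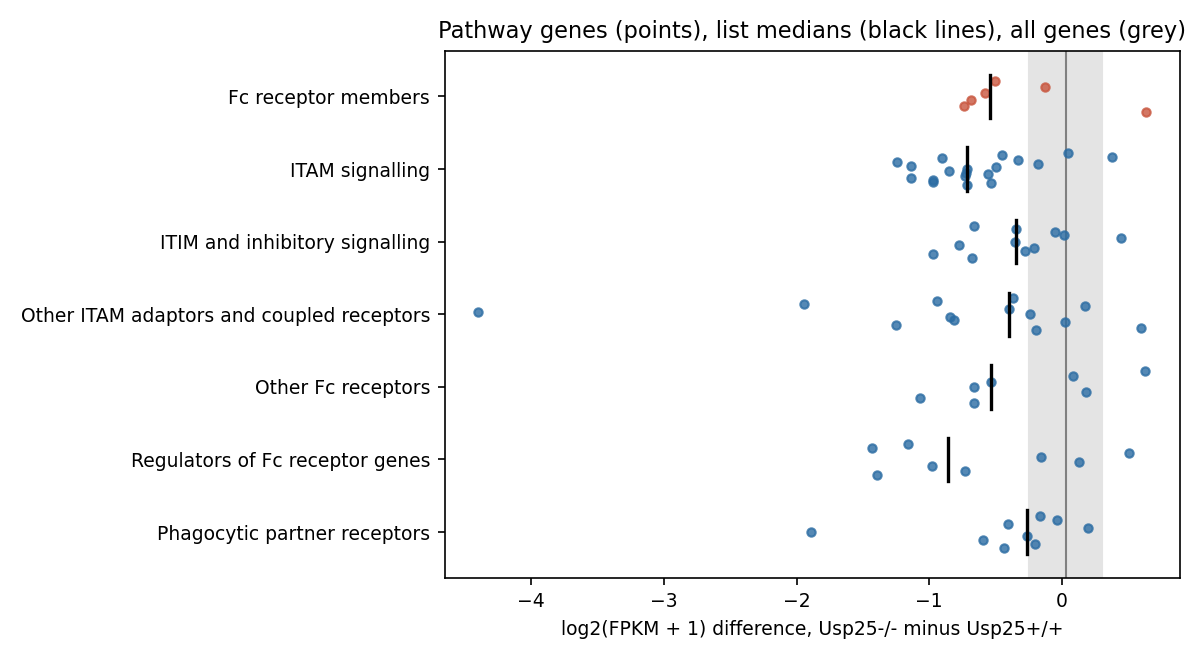
Log2(FPKM + 1) difference between Usp25-/- and Usp25+/+ mice (horizontal axis) of each tested gene (points) in 7 lists (rows), with the median of each list as a black line and the quartiles and median of all tested genes in grey. The median of ITAM signalling lies at -0.72 and that of the Fc receptor genes at -0.54, against 0.03 for all genes.

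Markers of the cells that carry these receptors were read beside the members. Of 9 macrophage markers 2 were lower in both Usp25-/- mice without overlap, Csf1r and Adgre1, beside 14.7% of all genes tested. Adgre1, which encodes the F4/80 antigen, showed 142 and 110 FPKM in Usp25+/+ and 72.5 and 76.5 FPKM in Usp25-/- mice. Csf1r stood at 96.2 and 52.8 FPKM, versus 47.3 and 48.0 FPKM. The other 7 overlapped, and the complement genes C1qa, C1qb and C1qc had positive log2 differences of 0.25, 0.09 and 0.49. The summed level of the 9 markers was 4338 and 2428 FPKM, versus 2639 and 1706 FPKM and overlapped. Cd14 made up most of this sum in mouse WT-139, at 3392 FPKM. It stood at 673 FPKM in mouse WT-140 and at 1493 and 637 FPKM in the Usp25-/- mice. The sum therefore does not stand for all 9 markers alike. The ratio of Fcgr3 to Adgre1 was 4.19 and 4.91 in Usp25+/+ mice and 5.07 and 4.41 in Usp25-/- mice, so the genotypes overlapped. The ratio of Fcer1g to Csf1r ranged from 12.2 to 14.0 over all 4 mice, while that of Fcgr3 to Csf1r ranged from 6.17 to 10.2. Adgre1 and Csf1r are the markers that were themselves lower, and the ratios of Fcgr3 and Fcer1g to Tyrobp and Ptprc varied more. Against Tyrobp, Fcer1g stood at 1.14 in mouse WT-139 and at 0.447 to 0.635 in the others. Fcgr3 stood at 0.575 and 0.326 times Tyrobp in Usp25+/+ mice and at 0.293 and 0.325 times in Usp25-/- mice. Mice WT-140 and KO-850 were nearly equal in this ratio. Against Ptprc, Fcgr3 ranged from 4.84 in mouse WT-139 to 11.6 in mouse WT-140, and Fcer1g from 9.59 to 15.9 in the same mice. The part of macrophage number in the members' values was not tested.

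Neutrophil markers were highest in mouse WT-139 for 7 of 7 genes, with a median of 572 FPKM, versus 15.4 to 42.5 FPKM in the other mice, and Fcer1g, Fcgr2b, Fcgr3 and Fcgr4 were highest there too. Relative to mouse WT-140 they stood in mouse WT-139 at 1.59, 1.31, 1.1 and 1.09, respectively. The part of neutrophils in these levels was not tested. Alveolar macrophage markers summed to 6945 and 9549 FPKM in Usp25+/+ mice and to 9742 and 7041 FPKM in Usp25-/- mice, so the sums overlapped. Chil3 made up most of each sum, at 6219 and 8777 FPKM, versus 8882 and 6380 FPKM. Of the 6 markers, Siglecf was lower without overlap, at 29.2 and 48.9 FPKM, versus 26.5 and 21.9 FPKM. Pparg was higher without overlap, at 27.4 and 54.3 FPKM, versus 80.4 and 66.6 FPKM. These compare with 14.7% of all genes tested lower and 19% higher, and the other markers overlapped. Monocyte markers summed to 964 and 221.5 FPKM in Usp25+/+ mice and to 638 and 322 FPKM in Usp25-/- mice, and 4 of 5 were highest in mouse WT-139. NK cell markers, for cells that carry Fcgr3, summed to 4.33 to 24.95 FPKM over 6 genes, with Ncr1 at no more than 0.292 FPKM. B cell markers, for cells that carry Fcgr2b, summed to 11.5 to 38.4 FPKM over 6 genes, with Pax5 listed at 0 in 3 mice. Of 7 mast cell markers, Mcpt1 and Mcpt2 were higher without overlap in Usp25-/- mice (limma adjusted p = 0.968 for both), at 1428 and 592 FPKM for Mcpt1, versus 73.8 and 134 FPKM. Kit was lower without overlap, at 3.98 and 4.92 FPKM in Usp25-/- mice, versus 5.85 and 5.55 FPKM. Over all genes tested, 19% were higher and 14.7% were lower without overlap. Hdc was highest in mouse WT-139, at 287 FPKM, and Cpa3, Tpsb2 and Tpsab1 stayed below 1 FPKM in all 4 mice. The part of monocytes and mast cells in the members' values was not tested.

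Genes with the most similar pattern over the 4 mice were looked up by the root mean square difference of their centred log2(FPKM + 1) values. Nearest to Fcgr3 were Serac1 and AA465934, each at 0.05, and Zbtb21 at 0.05. Nearest to Fcgr4 were Furin at 0.04, Nkiras1 at 0.05 and Slc36a4 at 0.05. Furin, a proprotein convertase, showed 88.6 and 80.3 FPKM in Usp25+/+ and 53.3 and 42.4 FPKM in Usp25-/- mice. Fcgr2b had Anpep, the CD13 aminopeptidase, at 0.02, with Znrf1 at 0.03 and Sec61a2 at 0.03. Fcer1g had Gtdc1 and Cep120 at 0.02 and Egr2 at 0.02. Fcgrt had Fkbp1b, Reep5 and Etfb, each at 0.04, and all 3 were lowest in mouse WT-139. Fcgr1 had Sh3gl1, Secisbp2 and Mapkbp1, each at 0.01. Such closeness is common with 4 mice, since 423 genes lay within 0.2 of Fcgr3 and 2352 within 0.2 of Fcgr1. Among the members themselves, Fcgr3 and Fcgr4 were the closest pair, at 0.09, followed by Fcgr2b and Fcer1g at 0.13.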

How the data were processed

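The deposited table gives 1 FPKM value for each of 24421 gene symbols in each of 4 mice, computed by the authors. Bowtie 0.12.2 and mm9 are named in the submitters' processing notes. What computed FPKM, with which annotation and strandedness, is not given in the sources used here. Columns sum to between 526652 and 565645, so read depth is unknown and no counting interval is given. A value of 0 is described only as listed at 0. Symbols turned into dates (27) were left out, which left 24394 genes. Genes with an FPKM of at least 1 in at least 2 mice (12103) were tested as log2(FPKM + 1), a scale that understates changes of low genes. Genotypes were compared with limma 3.58.1 in R 4.3.3 (moderated test with a mean-variance trend, two-sided, Benjamini-Hochberg over all genes tested, threshold 0.05). The fit was tried on simulated data in which every gene had the same spread, which the measured genes do not have. With no pairing or batch in the labels the fit has no block, and p-values reflect only how much these mice vary. Ratios were compared by exact permutation.

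The members and gene lists were chosen with earlier results of these data known. Named genes are the 6 members, Usp25, the 3 genes nearest in pattern to each member (predicted and RIKEN genes left out), up to 4 genes of smallest p per list and a few fixed pathway genes. Others were chosen after their values were seen. Older symbols were matched where needed. Positions and transcripts come from Gencode for mm9, and promoters from RefSeq for GRCm38.p6. Python 3.11.15 with pandas 2.3.3 and matplotlib 3.10.9 was used for sequences and plots. Some genes and motifs are not reported here.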

Additional observations from a re-analysis of the deposited data

How the results depend on the processing

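No member was called under any alternative run: pseudocounts of 0.1 and 0.5, no filter, a filter of at least 1 FPKM in all 4 mice, rescaling to a common sum, median-of-ratios scaling, limma without the trend and leaving out each mouse. With all 4 mice, Fcgr3 stayed between -0.71 and -0.68 on the log2 scale, Fcgr4 between -0.77 and -0.74 and Fcgrt between 0.60 and 0.65. A threshold of 0.1 was tried for the count over all genes. Leaving out each mouse gave ranges of -0.31 to 0.066 for Fcgr1 and -0.22 to 1.49 for Fcgrt, both of which change sign. For Usp25 the range was -3.65 to -2.49, with limma's adjusted p at 0.0341 without mouse WT-140. The count of called genes over the whole table ranged from 0 to 163, reached without mouse WT-140. The count of members lower without overlap, an alternative chosen after seeing the data, ranged from 4 to 6. It was 4 with all 4 mice, beside 14.7% of all genes tested. Without mouse WT-139 it was 6, beside 36.8% of all genes tested. For the runs without another mouse the share over all genes was not computed. Log2 differences of the ratios to Fcgr2b ranged from -0.29 to 0.081 for Fcgr3, from -0.48 to 0.15 for Fcgr4 and from 0.05 to 0.84 for Fcgr1. Those of the ratios to Fcer1g ranged from -0.44 to 0.09, from -0.51 to 0.039 and from -0.16 to 0.91. The median of the other Fc receptors ranged from -0.91 to 0.12 with a mouse left out and was 0.027 without a filter, where more low genes enter. The median of the regulators, -0.86 with all 4 mice, ranged from -0.74 to -0.22 with a mouse left out and from -0.98 to -0.86 under the other settings. The cause of these shifts was not tested. When a mouse is left out, the lone mouse of its genotype is assumed to vary like the others. No paired analysis was possible because the labels give the mice no shared numbers. The depth of the libraries is unknown, so values near 0 cannot be told from undetected ones.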
